A study of Homo sapiens with 4 samples.

Results

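Across 4 CUT&Tag libraries of the chromatin remodelling subunit BAF45D, 555 genomic regions lay away from the ends of protein-coding genes and held a peak in every library. They were found by merging the peaks of all libraries that overlapped by at least 1 bp, on chromosomes 1 to 22 and X, and by keeping regions with a peak of each library that lay more than 1 kb from every start or end of a protein-coding gene. They are called distal shared regions here. They made up 555 of 44534 merged regions and 555 of the 1458 regions with a peak in all 4 libraries. The other 903 shared regions lay within 1 kb of a coding gene end, meaning its start or its end. They are called gene-end shared regions.

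The libraries were NSC1 and NSC2, from spinal cord neural stem cells (NSC), and ESC1 and ESC2, from the embryonic stem cells (ESC) that gave rise to them. Both cell types were of H9, an established human embryonic stem cell line. ESC were grown on Matrigel in mTeSR1. For NSC, the same line underwent neural induction for 10 days with LDN-193189, SB431542, CHIR-99021, FGF2, FGF8 and DAPT, was given a maintenance medium with SB-431542, CHIR-99021 and Hh-Ag 1.5, and was then kept with FGF2 and EGF; the basal medium was N2B27 and Y-27632 was added at passages. All groups come from 1 line with no change to its genome named in the labels, each assay used 100000 cells and the same rabbit antibody to BAF45D, and the labels do not say whether the libraries of a cell type were separate cultures, so their spread may be technical.

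BAF45D is encoded by DPF2. It is a subunit of the BAF (SWI/SNF) complex, which uses ATP to slide or evict nucleosomes and so opens promoters and enhancers, and its paired PHD fingers bind modified histone H3 tails. In CUT&Tag, an antibody brings the transposase Tn5 to the chromatin next to its target, where it cuts and tags the DNA. A gene start is the usual place of such signal; regions far from coding genes can hold enhancers, promoters of small RNA genes transcribed by RNA polymerase III, alternative promoters inside genes, or repeats that occur in many copies.

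Among the distal shared regions, 80 overlapped the window from 250 bases before to 50 bases after an annotated start of a coding gene, although they lay more than 1 kb from both ends of that gene. The windows of 4 of them are printed because they show what such an inner promoter looks like: the 3 strongest whose window lies wholly inside the region (the histone acetyltransferase gene KAT6B, the splicing regulator gene HNRNPL and the ubiquitin-conjugating enzyme gene UBE2D3), and that of CHD8, a chromatin remodeller and the only member of the list of chromatin loop and architecture factors next to a distal shared region. The sequences are from RefSeq on GRCh38.p14, 5′ to 3′ on the strand of the gene, with capitals marking matches on either strand to the letters CCAAT (the NF-Y box), GGGCGG (the GC box) and the palindrome bound by ZBTB33 (the 10 capitals in a row in the UBE2D3 window). The windows are at chr10:74826350-74826649 (plus strand) for KAT6B, chr19:38849937-38850236 (minus strand) for HNRNPL, chr4:102827899-102828198 (minus strand) for UBE2D3 and chr14:21437226-21437525 (minus strand) for CHD8.
KAT6B: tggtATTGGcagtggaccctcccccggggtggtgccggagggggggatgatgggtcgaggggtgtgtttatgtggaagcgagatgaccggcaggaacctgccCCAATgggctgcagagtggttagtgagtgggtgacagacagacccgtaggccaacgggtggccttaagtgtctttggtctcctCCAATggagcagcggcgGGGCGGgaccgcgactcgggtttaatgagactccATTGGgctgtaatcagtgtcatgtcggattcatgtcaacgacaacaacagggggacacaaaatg
HNRNPL: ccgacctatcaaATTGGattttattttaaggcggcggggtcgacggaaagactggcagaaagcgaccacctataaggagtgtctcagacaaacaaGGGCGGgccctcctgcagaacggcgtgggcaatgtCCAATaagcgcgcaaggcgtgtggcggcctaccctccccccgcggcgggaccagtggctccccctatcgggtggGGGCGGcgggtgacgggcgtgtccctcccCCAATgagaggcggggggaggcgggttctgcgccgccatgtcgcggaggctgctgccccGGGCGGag
UBE2D3: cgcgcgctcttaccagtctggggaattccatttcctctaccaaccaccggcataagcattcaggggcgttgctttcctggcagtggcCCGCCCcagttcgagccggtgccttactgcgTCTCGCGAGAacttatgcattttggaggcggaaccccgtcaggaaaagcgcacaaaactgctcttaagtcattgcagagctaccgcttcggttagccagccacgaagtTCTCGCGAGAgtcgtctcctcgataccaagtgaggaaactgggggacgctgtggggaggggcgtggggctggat
CHD8: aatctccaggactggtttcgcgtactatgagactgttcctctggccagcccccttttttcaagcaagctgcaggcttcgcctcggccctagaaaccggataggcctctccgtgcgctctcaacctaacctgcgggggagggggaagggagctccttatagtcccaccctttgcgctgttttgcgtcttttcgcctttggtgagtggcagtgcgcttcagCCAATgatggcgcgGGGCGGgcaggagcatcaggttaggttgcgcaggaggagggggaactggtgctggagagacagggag
KAT6B carried 4 CCAAT matches and 1 GC box, HNRNPL 3 of each, UBE2D3 1 GC box and 2 copies of the ZBTB33 palindrome, whose first bases lie at -132 and -24 from the start, and CHD8 1 CCAAT box and 1 GC box. A match of letters is a description of the window and not a measured binding site.

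The file headers gave 5566407 and 5377831 tags for NSC1 and NSC2, against 20734829 and 18953543 tags for ESC1 and ESC2. The lists held 29783 and 24669 peaks in NSC1 and NSC2, against 4204 and 12533 peaks in ESC1 and ESC2, so the shortest list, ESC1, limits which regions can be shared. All strengths below are the authors' own −log10 q values of the strongest peak of a region, computed within 1 library without a control; they are given to describe regions, and between lists only ranks are set side by side. The marker genes of the labelled cell types could be compared by the presence of a peak alone: 8 and 7 of 8 neural stem cell marker genes had a peak inside them or up to 10 kb away in NSC1 and NSC2, against 2 and 5 in ESC1 and ESC2; of 6 embryonic stem cell markers, 4 and 3 had one in NSC1 and NSC2, against 4 and 5 in ESC1 and ESC2. Of all 19821 coding genes, 64.6% and 59.5% had such a peak in NSC1 and NSC2, against 15.3% and 43.7% in ESC1 and ESC2, and these small marker counts were not tested against those shares. NANOG, a pluripotency factor, had no peak in any library, and no distal shared region lay within 10 kb of any of these markers. No test between cell types was made, because the smallest two-sided p of an exact permutation over 2 and 2 libraries is 0.333.

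Regions with a peak in all 4 libraries were rarer away from coding gene ends. Of 34519 distal regions, 1.61% held a peak in every library, against 9.02% of 10015 gene-end regions and 3.27% of all merged regions. Single libraries had a peak in 61.7% and 49.6% of the distal regions in NSC1 and NSC2, against 8.84% and 24.5% in ESC1 and ESC2. Of the regions shared by all 4 libraries, 38.1% were distal (95% Wilson interval 35.6 to 40.6, counting error only), against 78.2% of the 13646 regions with peaks in both NSC libraries and no ESC library (NSC-only) and 90.9% of the 736 regions with the converse (ESC-only). ESC1 decides the number: without it, 1292 distal regions had a peak in the other 3 libraries.

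Although defined by presence alone, the distal shared regions were strong within each list. Their median percentile of −log10 q was 85.3 and 86.9 in NSC1 and NSC2, against 84.2 and 93.6 in ESC1 and ESC2, where the strongest peak of a list is near 100. Other distal regions had medians of 45.4 and 45.5 in NSC1 and NSC2, against 37.5 and 38.2 in ESC1 and ESC2. Gene-end shared regions stood at 93.9 and 92.2 in NSC1 and NSC2, against 66.5 and 91.6 in ESC1 and ESC2. The distal shared regions were thus lower than the gene-end ones in both NSC libraries and higher in both ESC libraries, by the most in ESC1. A region that holds a peak in every list was chosen by its signal, so these values are a description. The median width was 675 bp, against 803 bp for gene-end shared regions and 289 bp for other distal regions, and the widths of shared regions come from merging several peaks. The distance to the nearest coding gene end had a median of 22001 bp, against 55951 bp for other distal regions, and 98 regions (17.7%) lay 1 to 5 kb from one.

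The limit of 1 kb cuts through a continuous range. Distances here run to the nearer of the start and the end of a gene. The nearest regions outside the limit were 1020 bp from GOLGA6B, 1041 bp from KAT6B and 1051 bp from SCAF11, a splicing factor gene. Those of KAT6B and SCAF11 lay inside the gene. KAT6B had −log10 q values of 70.8 and 85.2 in NSC1 and NSC2, against 44.0 and 73.7 in ESC1 and ESC2. The nearest shared regions inside the limit, which are no distal shared regions, were 991 bp from ACSS2, 960 bp from TEAD2 and 959 bp from IRX5. TEAD2, a partner of YAP in Hippo signalling, had 38.0 and 34.7 in NSC1 and NSC2, against 24.1 and 36.7 in ESC1 and ESC2.

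Named classes of neighbour covered most of the distal shared regions, since 111 of 555 (20.0%) had none of the 9 neighbours counted here, against 43.9% of all distal regions. The classes, which overlap, are a tRNA, snRNA or other small RNA gene, a mitochondrial pseudogene or the end of a lncRNA gene within 1 kb, a position within 5 Mb of the widest gene-free stretch of the chromosome (on most chromosomes the one that holds the centromere), a position within 100 kb of the first base or of the outermost annotated gene or peak, an annotated coding promoter window, and the inside of a coding gene. The composition chart gives each region its first class.

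**Figure D1:**
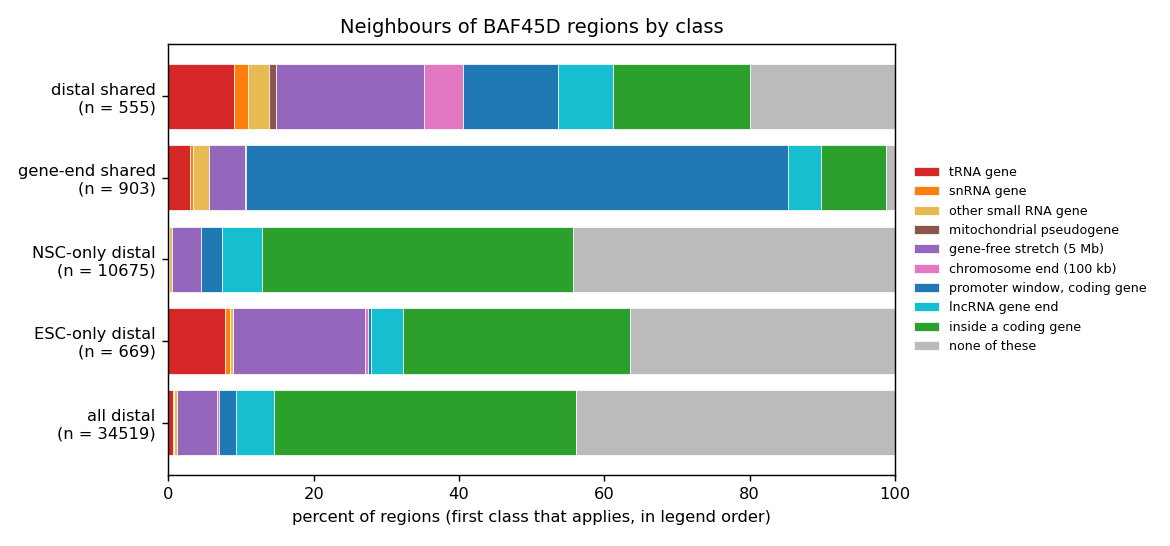
Percent of regions in each neighbour class for distal shared regions, gene-end shared regions, distal regions with peaks in both NSC and no ESC library, distal regions with the converse, and all distal regions; each region counts once, under the first class that applies. Among the 555 distal shared regions, 111 (20.0%) fall in none of the classes, against 43.9% of all 34519 distal regions.

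The class of mitochondrial pseudogenes was taken by symbol (beginning with MT and ending in P and a number); 465 of its 505 genes are nuclear copies of protein genes of the mitochondrial DNA, and the other 40 are pseudogenes of nuclear genes. Of the distal shared regions, 5 (0.901%) lay within 1 kb of a gene of the class, all 5 near copies of mitochondrial genes, and without ESC1 the share was 0.387%. The class had 10 distal regions (50% shared), 8 of them near such copies. The 5 regions included the strongest and the fourth strongest of all. The strongest, at chromosome 1, 633798 to 634251, overlapped MTATP6P1, a copy of the gene for an ATP synthase subunit, and had −log10 q values of 551.6 and 526.6 in NSC1 and NSC2, against 1037 and 1406 in ESC1 and ESC2. The fourth, at chromosome 17, 22521267 to 22521586, lay 558 bp from MTCYBP13, a cytochrome b copy, with 322.7 and 262.2 in NSC1 and NSC2, against 522.0 and 821.9 in ESC1 and ESC2. Both were near the top of every list. The other 3 were 2 regions over MTND4P12, inside PCBD2 on chromosome 5, and 1 region over MTND2P28 on chromosome 1, with −log10 q of at most 63.8 in the NSC libraries, against at most 145.9 in the ESC libraries.

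Peak summits at these 5 regions fell almost on the same base in every library. The median distance was 4 bp between NSC1 and NSC2 and between ESC1 and ESC2. Between the cell types, taken as the mean over the 4 pairs of an NSC and an ESC library, it was also 4 bp. The mitochondrial chromosome itself also had entries in the lists: 28 in NSC1 and 28 in NSC2, with a highest pileup of 4825 and 4296 tags, and 30 in ESC1 and 31 in ESC2, with a highest pileup of 7426 and 10346 tags. Reads of a pseudogene and of the mitochondrial DNA it resembles cannot be told apart in a peak list, and the part of that DNA in these regions was not tested.

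Regions near the gene-free stretches, called pericentromeric here, formed the largest class after the inside of coding genes. Of the distal shared regions, 129 (23.2%, 95% Wilson interval 19.9 to 26.9) lay within 5 Mb of the widest gene-free stretch, against 5.73% (5.49 to 5.98) of all distal regions, 5.09% of gene-end shared regions, 3.99% of the NSC-only distal regions and 19.6% of the ESC-only distal regions. A peak in all 4 libraries was found in 6.53% of the 1977 distal regions of the class. The class held 10 of the 20 strongest regions, 48 of the 555 lay within the gene-free stretch itself, and 95 of the 129 overlapped no annotated gene. On chromosome 21 the widest gene-free stretch runs from base 1 to 5010453, so the eighth strongest region, at 10692633 to 10693066, is not counted in it. The class goes by distance alone. It also holds a region in HUWE1, 4301713 bp from the stretch, and a region over tRNA genes on chromosome 11, 4958856 bp away. Without ESC1 the share of the class was 13.5%.

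The second strongest region, at chromosome 4, 49149237 to 49149930, lay 87158 bp from CWH43 and had −log10 q of 187.3 and 453.2 in NSC1 and NSC2, against 972.2 and 865.2 in ESC1 and ESC2. The third, at chromosome 3, 93470259 to 93470899, had 1205 and 1302 in NSC1 and NSC2, against 602.4 and 423.9 in ESC1 and ESC2. It was the strongest of the distal shared regions in both NSC libraries. The fifth, at chromosome 2, 89833160 to 89833503, within the annotated span of IGK, the immunoglobulin kappa locus, had 77.2 and 162.7 in NSC1 and NSC2, against 625.9 and 494.7 in ESC1 and ESC2. Regions of the class came in runs: 13 lay between 49092646 and 49154676 on chromosome 4, 8 between 49599467 and 49667353 on chromosome 5, 7 between 143194821 and 143264895 on chromosome 1 and 7 between 34573826 and 34595856 on chromosome 16. The widest distal shared region, of 3091 bp at chromosome 16, 46398562 to 46401652, belonged to the class, with 10.4 and 30.4 in NSC1 and NSC2, against 193.8 and 112.2 in ESC1 and ESC2. Runs of neighbouring regions are not independent of each other; 180 of the 555 regions (32.4%) lay within 100 kb of another.

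Chromosome ends gave 30 distal shared regions (5.41%, 95% Wilson interval 3.81 to 7.61), against 0.255% (0.207 to 0.314) of all distal regions, 0.332% of gene-end shared regions and 0.0656% of the NSC-only and 0.448% of the ESC-only distal regions. A peak in all 4 libraries was found in 34.1% of the 88 distal regions of the class. The class and its window were chosen after the values were seen. In 12 cases on 11 chromosomes the region lay in the first 20 kb of the chromosome, next to the telomere. On chromosome 1, the region at 9908 to 10618, 1256 bp from the pseudogene DDX11L1, had −log10 q of 111.1 and 133.6 in NSC1 and NSC2, against 118.0 and 134.8 in ESC1 and ESC2. At the other end of chromosome 22, 50807798 to 50808555 had 129.2 and 139.8 in NSC1 and NSC2, against 146.7 and 191.7 in ESC1 and ESC2. Both regions were above the 90th percentile in all 4 lists.

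DUX4, the gene for a homeobox factor of the early embryo that lies in a repeat array at the end of chromosome 4, contained the region 190179073 to 190180088, which had 65.3 and 51.0 in NSC1 and NSC2, against 278.8 and 186.9 in ESC1 and ESC2. Genes of the DUX4 family were within 1 kb of 4 distal shared regions, out of 6 distal regions next to the family. DDX11L pseudogenes, most of which sit beside telomeres, were within 1 kb of 3, out of 6. WASH and RPL23AP pseudogenes were within 1 kb of 0 distal shared regions, out of 3 and 2 distal regions. The pseudogenes of FAM86 gave a further family inside the chromosome arms: 8 of its 12 genes were within 1 kb of a distal shared region, and 8 of the 10 distal regions next to them were shared. At FAM86DP the values were 63.7 and 73.4 in NSC1 and NSC2, against 2.87 and 25.4 in ESC1 and ESC2; at FAM86EP they were 46.9 and 50.9 in NSC1 and NSC2, against 10.5 and 23.9 in ESC1 and ESC2. These families were also chosen after the values were seen, and their copies share sequence, so counts over copies are not independent.

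tRNA genes, which RNA polymerase III transcribes from promoters inside the gene, were within 1 kb of 50 distal shared regions (9.01%, 95% Wilson interval 6.90 to 11.7). The share was 0.640% (0.561 to 0.730) among all distal regions, 2.99% among gene-end shared regions, 0.0562% among the NSC-only distal regions (6 of 10675) and 7.77% among the ESC-only distal regions (52 of 669). Among the 221 distal regions near a tRNA gene, 22.6% had a peak in all 4 libraries, against 1.61% of all distal regions. Of the 50, 47 overlapped the tRNA gene itself and 16 lay on chromosome 6, which carries the large tRNA gene cluster beside the histone genes. Without ESC1, the share was 5.19% of 1292 regions.

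The strongest of the tRNA regions, at chromosome 15, 45198488 to 45199185, overlapped the histidine tRNA gene TRH-GTG1-7 inside SHF and had −log10 q of 42.6 and 36.4 in NSC1 and NSC2, against 23.6 and 44.2 in ESC1 and ESC2. On chromosome 11, 59550335 to 59551423 covered 3 tRNA genes, TRR-TCT3-2, TRV-TAC1-1 and TRV-TAC2-1, with 31.9 and 28.9 in NSC1 and NSC2, against 30.2 and 52.7 in ESC1 and ESC2. On chromosome 17, 8221168 to 8223183 covered TRD-GTC2-11, TRG-TCC3-1 and TRP-CGG1-3 and had 45.0 and 22.4 in NSC1 and NSC2, against 30.0 and 61.4 in ESC1 and ESC2. All 3 were above the 90th percentile of every list. Over the 50 regions the medians were 15.1 and 11.9 in NSC1 and NSC2, against 10.3 and 25.6 in ESC1 and ESC2.

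Counted by gene, 374 tRNA genes lay away from coding gene ends. Of these, 123 and 121 had a peak within 1 kb in NSC1 and NSC2 (32.9% and 32.4%), against 150 and 230 in ESC1 and ESC2 (40.1% and 61.5%), and 83 (22.2%) had one in all 4 libraries. More tRNA genes had a peak in each ESC library than in either NSC library, although the ESC lists were shorter and the ESC libraries deeper; the part of depth in this was not tested. The distal shared regions reached 79 tRNA genes, against the 374 that lay away from coding gene ends. By the amino acid of the tRNA, they reached 11 of 30 leucine genes, 9 of 18 proline genes, 7 of 18 arginine genes and 6 of 13 aspartate genes. They also reached 4 of 6 genes with the amino acid letter X, 4 of 12 glutamate and 3 of 9 phenylalanine genes. They reached 0 of 26 cysteine, 0 of 19 asparagine, 0 of 9 tyrosine genes and 0 of 2 with the letter U. These are the highest and lowest shares, and differences between kinds were not tested. tRNA genes of 1 kind are near-identical copies that often lie in clusters, so these counts are not independent. The input of the peak calls was named unique, so reads that match several copies may be missing.

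Genes of the annotation's snRNA type, which includes the genes of the spliceosomal RNAs, were within 1 kb of 11 distal shared regions (1.98%), against 0.127% of all distal regions, and 25% of the 44 distal regions of the class were shared. The type also holds 28 snaR genes, RN7SK and RNU7-1, which lay near 5 of the 44 regions and near 0 of the 11. Of the 11 regions, 8 lay on chromosome 1 and 10 overlapped the gene. The U1 genes and U1 variants (RNU1 and RNVU1), which pair with the 5′ splice site, accounted for 6 of the 11. They were within 1 kb of 21 distal regions in all, so nothing is read from this count. RNVU1-14 had −log10 q of 21.6 and 17.7 in NSC1 and NSC2, against 8.77 and 23.9 in ESC1 and ESC2, and RNU5E-1, a U5 gene, had 23.5 and 15.6 in NSC1 and NSC2, against 6.82 and 40.2 in ESC1 and ESC2. RNU4ATAC, which encodes the U4atac snRNA of the minor spliceosome, had 23.5 and 16.6 in NSC1 and NSC2, against 1.88 and 7.22 in ESC1 and ESC2; it was chosen after its values were seen. ESC1 gave the lowest percentile within its list at each of these 3 genes. That did not hold at RNVU1-19, with percentiles of 93.7 and 83.6 in NSC1 and NSC2, against 89.9 and 92.4 in ESC1 and ESC2. Nor did it hold at LOC124904138, with 80.9 and 83.0 in NSC1 and NSC2, against 94.9 and 99.5 in ESC1 and ESC2. By gene, 29 and 24 of 138 snRNA genes away from coding gene ends had a peak in NSC1 and NSC2, against 21 and 34 in ESC1 and ESC2, and 12 had one in all 4.

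The class of other small RNA genes was taken by gene type and also includes ribosomal RNA genes, which are not all small. Its genes were next to 16 distal shared regions, and 10.7% of the 150 distal regions of the class were shared. RN7SL1 and RN7SL2, which encode the RNA of the signal recognition particle and are transcribed by RNA polymerase III, were both among them. At RN7SL1 the values were 29.3 and 32.2 in NSC1 and NSC2, against 18.2 and 45.6 in ESC1 and ESC2. At RN7SL2 they were 34.8 and 30.4 in NSC1 and NSC2, against 6.91 and 10.9 in ESC1 and ESC2. SNORD3A, SNORD3B-2 and SNORD3D, copies of the gene for the U3 snoRNA that processes ribosomal RNA, gave 3 more regions. The vault RNA gene VTRNA1-3 had 5.13 and 5.27 in NSC1 and NSC2, against 4.83 and 14.8 in ESC1 and ESC2. A region 116 bp from RNA45SN2, a ribosomal RNA repeat on chromosome 21, had 19.3 and 13.9 in NSC1 and NSC2, against 132.1 and 150.6 in ESC1 and ESC2, at percentiles of 92.9 and 88.1 in NSC1 and NSC2, against 99.0 and 99.8 in ESC1 and ESC2. Apart from RN7SL1, which is in the rule for named regions, RN7SL2, the SNORD3 genes and VTRNA1-3 were chosen after their values were seen.

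Regions over a coding promoter window away from both gene ends are called inner promoters here. The 80 regions were 14.8% (95% Wilson interval 12.02 to 17.99) of the 542 distal shared regions outside chromosome 8, for which no promoter windows were used here, against 2.66% of all distal regions, 3.11% of the NSC-only and 0.472% of the ESC-only distal regions, and 84.5% of gene-end shared regions. Of the 869 distal regions over such a window, 9.21% had a peak in all 4 libraries, against 1.61% of all distal regions. The 9.02% of gene-end regions also counts regions over no such window, so it is not a like share. All 80 lay inside the annotated span of the coding gene. This class was chosen after the values were seen.

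The KAT6B region, chromosome 10, 74825977 to 74827026, is described above and was the strongest of the class. HNRNPL, at chromosome 19, 38849886 to 38850825, had −log10 q of 45.6 and 36.8 in NSC1 and NSC2, against 26.2 and 45.8 in ESC1 and ESC2. UBE2D3, at chromosome 4, 102827124 to 102828624, which also overlapped UBE2D3-AS1, an antisense lncRNA gene, had 59.0 and 46.8 in NSC1 and NSC2, against 19.1 and 45.2 in ESC1 and ESC2. At each of these 3 genes ESC1 gave the lowest percentile. HUWE1, a ubiquitin ligase gene, had 45.8 and 42.7 in NSC1 and NSC2, against 11.8 and 42.8 in ESC1 and ESC2. RBPJ, the DNA-binding factor of Notch signalling, 114035 bp from the nearest coding gene end, had 26.2 and 27.1 in NSC1 and NSC2, against 10.3 and 21.1 in ESC1 and ESC2; RBPJ and SIN3A, a corepressor scaffold with 25.9 and 25.4 in NSC1 and NSC2, against 13.6 and 34.7 in ESC1 and ESC2, were chosen after their values were seen.

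Summits in these regions lay just upstream of the annotated start, at medians of -89.5 and -80 bases in NSC1 and NSC2, against -127.5 and -123.5 bases in ESC1 and ESC2, where negative numbers are upstream. They were within 250 bases of the start in 65 and 67 of 80 regions in NSC1 and NSC2, against 62 and 65 in ESC1 and ESC2. At gene-end shared regions over a promoter window the medians were -112.5 and -123 in NSC1 and NSC2, against -143.5 and -149 in ESC1 and ESC2. Both sets were selected by a window that reaches 250 bases before and 50 after a start. Where a region met several starts, the one nearest its mean summit was used. Both choices favour summits near or upstream of a start, so these positions are a description. In both sets the ESC summits lay farther upstream by the median than the NSC summits. At UBE2D3 the summits were at -34 and 6 in NSC1 and NSC2, against -187 and -163 in ESC1 and ESC2.

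Motif letters in these windows were counted on both strands. CCAAT was in 63.8% of the 80 windows, against 58.1% of 742 windows of gene-end shared regions and 34.7% of all 22012 coding promoter windows. The GC box GGGCGG was in 62.5% of the 80 windows, against 75.5% and 56.3%. The ETS letters CCGGAAG were in 5% of the 80 windows, against 20.4% of the gene-end shared and 12.8% of all windows. In the same order, TATAAA was in 3.75%, 4.18% and 9.49%; the cyclic AMP element TGACGTCA was in 3.75%, 4.31% and 2.25%. The ZBTB33 palindrome shown above was in 1 of the 80, UBE2D3 (1.25%), against 3.91% of gene-end shared and 0.554% of all windows. In that order too, median GC content was 61.8%, 62.0% and 62.3%, and the median number of CpG was 19, 23 and 21. The motifs are short, the matches say nothing of binding, and no test of the shares was made.

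Ends of lncRNA genes were within 1 kb of 71 distal shared regions (12.8%, 95% Wilson interval 10.3 to 15.8), against 6.19% of all distal regions and 23.4% of gene-end shared regions, and 3.32% of the 2138 distal regions of the class were shared. The share depended on the window, at 7.39% with overlap required and 22.2% within 5 kb. The strongest, at chromosome 1, 180653 to 181132, lay 548 bp from LOC124903814 and had −log10 q of 49.1 and 56.8 in NSC1 and NSC2, against 36.4 and 55.4 in ESC1 and ESC2. The inside of coding genes held 206 (37.1%, 33.2 to 41.2), below the 47.7% of all distal regions, and 1.25% of the 16477 distal regions there were shared. SERINC2, a serine incorporator gene, held the strongest of these, at chromosome 1, 31431676 to 31432251, with 257.4 and 283.6 in NSC1 and NSC2, against 157.5 and 268.4 in ESC1 and ESC2. LRRC27 had 69.3 and 67.5 in NSC1 and NSC2, against 148.2 and 157.6 in ESC1 and ESC2. The regions with none of the 9 neighbours were shared in 0.733% of 15150 cases. Whatever their class, 217 of the 555 regions overlapped no annotated gene (39.1%), against 36.2% of all distal regions, and 1.74% of the 12503 distal regions without an annotated gene were shared.

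The genes of the lists for pluripotency, spinal cord patterning and HOX had no distal shared region inside them or as the nearest coding gene (0 of 25, 0 of 21 and 0 of 39 genes). For the other lists the nearest or containing gene was 1 of 28 neural progenitor genes, 2 of 28 BAF subunit genes, 1 of 15 chromatin loop and architecture genes and 1 of 27 RNA polymerase III genes. Together these were 5 of the 181 coding genes of the lists (2.76%), against 438 of all 19821 coding genes (2.21%), so nothing is read from the counts. The neural progenitor gene was SOX3, a SOXB1 factor of neural progenitors, 218086 bp from a region with 23.7 and 58.8 in NSC1 and NSC2, against 7.001 and 6.696 in ESC1 and ESC2. Of the BAF subunit genes, ARID2, of the PBAF form, lay 1556 bp from a region with 16.05 and 12.95 in NSC1 and NSC2, against 3.22 and 17.4 in ESC1 and ESC2, and SMARCA2, one of the ATPases, lay 47716 bp from a region with 15.5 and 11.8 in NSC1 and NSC2, against 3.32 and 6.52 in ESC1 and ESC2. The CHD8 region had 21.98 and 11.31 in NSC1 and NSC2, against 6.10 and 9.58 in ESC1 and ESC2. POLR3K, an RNA polymerase III subunit gene, was the first coding gene after 2 regions at the end of chromosome 16, 26410 and 35198 bp away.

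Ranks among the 555 regions compare the lists on 1 common set: rank 1 is the strongest distal shared region of a library. Spearman's rho over the 555 regions was 0.81 between NSC1 and NSC2 and 0.79 between ESC1 and ESC2, against 0.21 to 0.54 over the 4 pairs of an NSC and an ESC library. Regions share chromosomes, runs and repeats, so rho is a description without a p-value.

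The classes took different places in NSC and ESC. Of all 555 regions, 266 ranked higher in ESC and 289 ranked higher in NSC. The 2 libraries of a cell type differed as well, as their medians below show. Pericentromeric regions had median ranks of 307 and 213 in NSC1 and NSC2, against 91 and 123 in ESC1 and ESC2, and 98 of the 129 ranked higher in ESC than in NSC by the mean of the 2 libraries. Inner promoters stood lower in ESC, at 208 and 257.25 in NSC1 and NSC2, against 383.5 and 365.75 in ESC1 and ESC2, and 66 of 80 ranked higher in NSC. tRNA regions were divided, 25 against 25, with medians of 247.5 and 301.5 in NSC1 and NSC2, against 258.25 and 219.5 in ESC1 and ESC2. Regions with none of the 9 neighbours stood at 330 and 313 in NSC1 and NSC2, against 312 and 338 in ESC1 and ESC2. Tags numbered 5566407 and 5377831 in NSC1 and NSC2, against 20734829 and 18953543 in ESC1 and ESC2, and the part of depth in these ranks was not tested. Ranks in a fixed set sum to the same total in every library, so a class that stands higher in ESC places others lower there, and the contrast of ranks was set up after the values were seen.

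**Figure D2:**
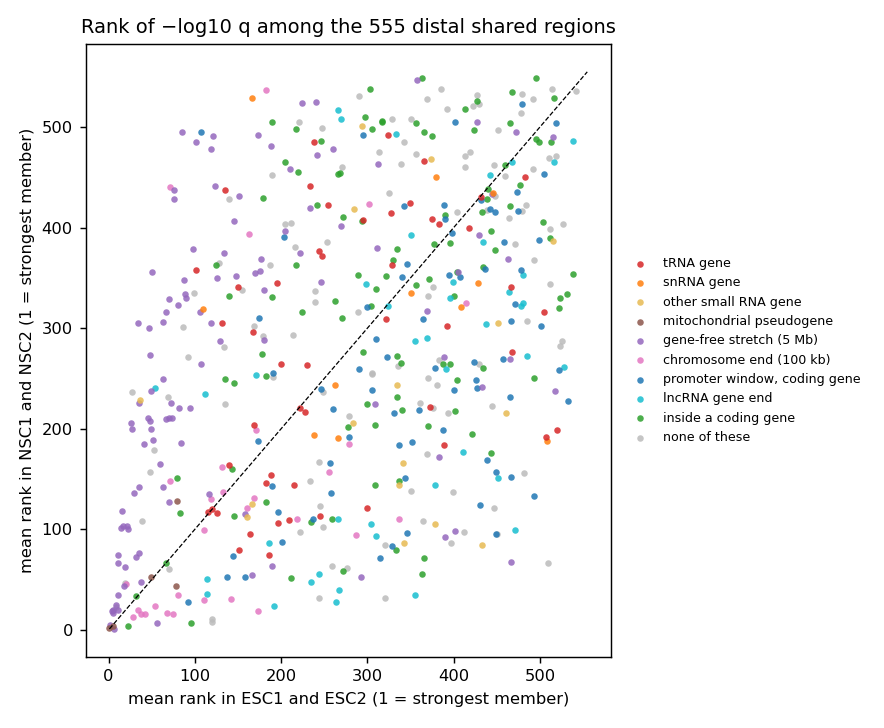
Mean rank of −log10 q in NSC1 and NSC2 (vertical axis) against mean rank in ESC1 and ESC2 (horizontal axis) among the 555 distal shared regions, 1 being the strongest; each point is a region coloured by its first class, and the dashed line marks equal ranks. Pericentromeric regions (113 points) gather at the left, above the line, and inner promoters (73 points) below it; over the whole classes, which include regions coloured otherwise, 98 of 129 pericentromeric regions rank higher in ESC and 66 of 80 inner promoters rank higher in NSC.

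Single regions show the span of these differences; they were picked for it. The region 7314 bp from LOC124909494, at chromosome 3, 147377770 to 147378682, had mean ranks of 66.5 in NSC and 509 in ESC, with −log10 q of 62.0 and 36.3 in NSC1 and NSC2, against 3.41 and 3.31 in ESC1 and ESC2. A region 8795 bp from ID1, an inhibitor of basic helix-loop-helix factors downstream of BMP signalling, had 50.7 and 38.3 in NSC1 and NSC2, against 3.86 and 7.13 in ESC1 and ESC2. This region lay 3014881 bp from the gene-free stretch and counts as pericentromeric, a class of which 31 of 129 regions ranked higher in NSC. A region 31744 bp from PIM1, a kinase gene, had 31.0 and 41.3 in NSC1 and NSC2, against 2.97 and 11.6 in ESC1 and ESC2. In the other direction, an inner promoter of ADAMTS10, a protease gene of the extracellular matrix, had mean ranks of 495.25 in NSC and 107 in ESC, with 4.78 and 3.63 in NSC1 and NSC2, against 32.3 and 66.6 in ESC1 and ESC2. A region at chromosome 1, 143264391 to 143264895, inside the gene-free stretch, had 3.25 and 5.38 in NSC1 and NSC2, against 97.6 and 54.7 in ESC1 and ESC2.

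**Figure D3:**
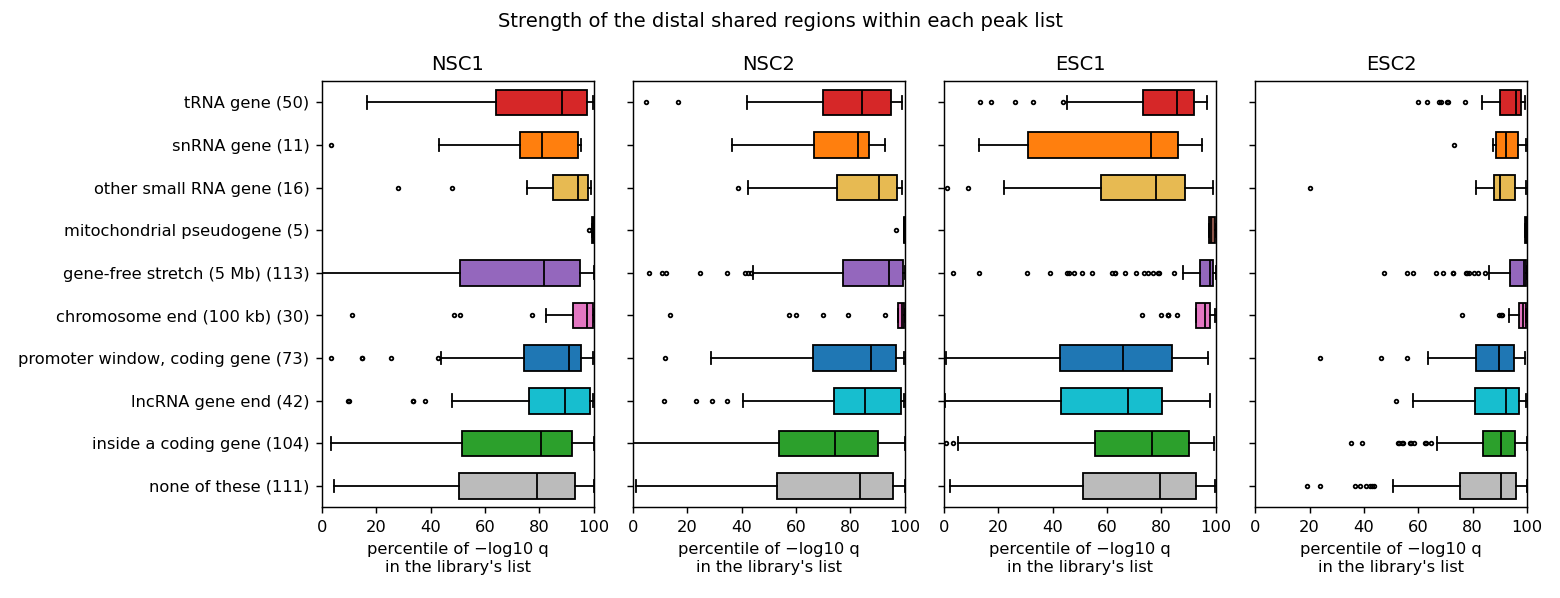
Percentile of −log10 q of each distal shared region within its own list, by first class (rows, with the number of regions) and library (panels); boxes span the quartiles with the median line, whiskers reach 1.5 times the box length and dots are regions beyond them. Chromosome-end regions are near the top of every list (whole-class medians 97.7 and 99.0 in NSC1 and NSC2, 96.0 and 98.7 in ESC1 and ESC2), and inner promoters are lowest in ESC1 (whole-class median 65.9).

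Strength ran from the top to the bottom of the lists. A percentile of at least 90 in every library was reached by 94 regions (16.9%), and one of at least 50 by 342 (61.6%), while 2 regions were under 50 in all 4. The weakest by mean percentile lay 5524 bp from DCLK1, a kinase gene of migrating neurons, with −log10 q of 2.65 and 2.56 in NSC1 and NSC2, against 1.76 and 3.70 in ESC1 and ESC2. The others of the 5 weakest were in FLI1, SYT1 and ZNF219 and 41219 bp from ING2. In FLI1, an ETS factor gene, the values were 1.99 and 1.64 in NSC1 and NSC2, against 3.63 and 4.47 in ESC1 and ESC2.

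The strongest summits of the libraries lay near each other in most distal shared regions. The median distance was 33 bp between NSC1 and NSC2 (95% interval of the median 28 to 38) and 28 bp between ESC1 and ESC2 (25 to 32), and 47 bp (41 to 53) over pairs of an NSC and an ESC library. The value between cell types is a mean over 4 pairs in each region, and those within a cell type are single distances. They are therefore not like measures, and no difference is read from them. At gene-end shared regions the medians were 29, 38 and 60.5 bp. Summits were within 50 bp of each other in 62.5% of distal shared regions for the NSC pair and 66.1% for the ESC pair. The mean distance between cell types was at most 50 bp in 52.1%. By class, the distance between cell types was smallest at mitochondrial pseudogenes (4 bp), chromosome ends (23.5 bp) and pericentromeric regions (29 bp), 50 bp at tRNA genes, 70.75 bp at inner promoters and 101 bp at snRNA genes. The 11 snRNA regions were also far apart within a cell type, with medians of 133 bp for the NSC pair and 97 bp for the ESC pair. A summit can be no farther from another than the merged region is wide.

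**Figure D4:**
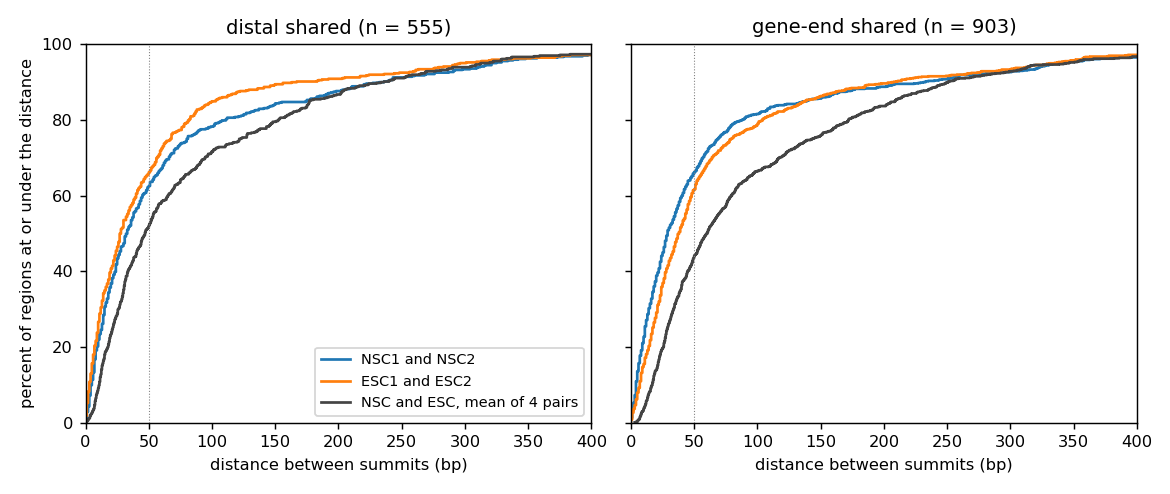
Cumulative percent of regions against the distance between the strongest summits, in bp, for the 555 distal shared regions (left) and the 903 gene-end shared regions (right), with a line each for NSC1 and NSC2, ESC1 and ESC2, and the mean over the 4 pairs of an NSC and an ESC library; the dotted line is at 50 bp. In the left panel 62.5%, 66.1% and 52.1% of regions are within 50 bp.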

How the data were processed

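BAF45D CUT&Tag peak lists of 2 NSC and 2 ESC libraries of the H9 line were used. The submitters' processing notes name FastQC, Trimmomatic, BWA (version 0.7.12) and the build hg38. Per the file headers, MACS2 (version 2.1.0.20150420) called peaks in each library alone, with no control library, a q threshold of 0.05, tags shifted by -100 bp and extended to 200 bp, a genome size of 3099750718 and a regional background of 10000 bp, from input named unique and deduplicated. The deposited pileup is a signal value in tags at the summit. The authors computed −log10 q (and −log10 p) and the fold enrichment, a ratio to the local background, within 1 library. No library with an untargeted antibody was used here, so peaks were not measured against the assay's background, and the absence of a peak means only that a threshold was not passed. Peak lists hold no counts, so no floor of binding was derived.

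From these lists, summits of 1 interval were reduced to the one of highest −log10 q, intervals overlapping by 1 bp were merged, and distances were measured to the genes of RefSeq GRCh38.p14, a table without strand or exons. Of its 59098 genes on chromosomes 1 to 22 and X, 679 listed with coordinates of scaffolds or alternate loci were left out. Regions are 1-based on hg38. Percentiles are ranks within a list, and summits are those of the strongest entry. Summit distances between cell types are means over the 4 pairs of an NSC and an ESC library in a region. Shares have 95% Wilson intervals over regions, which cover counting error only; neighbouring regions are not independent. The regions named are taken from the 10 highest by mean percentile, the 4 highest in each neighbour class, the 5 lowest and the widest. The rule also takes in those nearest the 1 kb limit and up to 4 next to genes of each list. Not every region of the rule is named. Outside that rule are regions named as chosen after their values were seen and the classes of chromosome ends and promoter windows. The gene families and the ranks of NSC against ESC are outside it too. The regions and gene lists were chosen with earlier results of these data known. Python 3.11.15, pandas 2.3.3, numpy 2.4.6 and scipy 1.17.1 were used, and merging and distances were tested on simulated regions. Alternatives were stricter peaks, equal list lengths, a larger overlap, each library left out, and other distance limits.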

Additional observations from a re-analysis of the deposited data

How the results depend on the processing

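With 4 lists and strengths on separate scales, every result is a count, share or distance with no test between cell types. No paired analysis was possible because the results come from no test, and the labels do not say that a replicate number marks a shared culture. The 555 regions became 310 with only peaks of −log10 q of at least 5 (37.1% inside coding genes became 31.9%, and the summit medians of 33, 28 and 47 bp for the NSC pair, the ESC pair and pairs between them became 23, 19 and 29.25 bp). With every list cut to its 4204 strongest peaks, 233 regions were left, 29.5% of shared regions were distal, 2.15% lay near a mitochondrial pseudogene, and the summit medians were 19, 22 and 31 bp. Leaving out each library in turn gave 573 to 1292 regions, with 31.4% to 42.6% of shared regions distal, 5.19% to 8.90% near a tRNA gene, 13.5% to 26.9% near a centromere gap and 35.8% to 48.1% inside coding genes. The most regions (1292), the lowest distal share, the lowest tRNA and gap shares and the highest share inside coding genes came without ESC1, the highest distal and gap shares and the lowest share inside coding genes without NSC1, and the fewest regions and the highest tRNA share without ESC2. The distal share of shared regions was 40.7%, 34.6% and 31.3% with limits of 500 bp, 2.5 kb and 5 kb, and the 5 kb limit gave 27.8% near a gap and 31.9% inside coding genes. Ends of lncRNA genes were overlapped by 7.39% of the regions and within 5 kb of 22.2%. A window of 2 or 1 Mb around the gap gave 15.5% or 12.97%. In an alternative chosen after seeing the data, leaving out regions near a gap, a chromosome end or a mitochondrial pseudogene gave 392 regions, a distal share of 31.5%, 50.3% inside coding genes and summit medians of 35 bp for the ESC pair and 56.5 bp between cell types. Keeping the scaffold genes at the coordinates of the table, also chosen later, gave 553 regions. The share near an snRNA gene stayed within its interval in all 14 alternatives (1.39% to 2.41%). The cause of these shifts was not tested.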
